A study of Gallus gallus with 15 samples.

Results

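The genes described here are the subunits of NF-kB and a group of feedback inhibitors of NF-kB and cytokine signalling, taken from a fixed list of 10 symbols. Of these, 9 have a row in the read-count table of 24154 genes: the subunits NFKB1, NFKB2, REL and RELA, the NF-kB inhibitors NFKBIA, NFKBIZ and TNFAIP3, and the cytokine signalling suppressors SOCS1 and SOCS3. RELB was not analysed here. Liver RNA was taken at 65 weeks of age from broiler breeders, hens kept to lay the eggs from which meat chickens hatch. The control group (5 libraries) received a diet with 0 mg/kg of metformin and the treated group (10 libraries) a diet with 75 mg/kg of body weight, both from 25 weeks of age for 40 weeks, with 45 hens in each treatment group. Metformin is a biguanide, used in people to treat diabetes. No strain is named in the labels. Whether every library stands for its own hen is not stated either, and the p-values therefore cover only library-to-library spread, which may be technical.

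NF-kB is a family of transcription factors that work as pairs of subunits. In resting cells the pairs are held in the cytoplasm by IkB proteins, of which IkB-alpha, the product of NFKBIA, is the best known. Signals from receptors for tumour necrosis factor, interleukin-1 and microbial products activate a kinase complex that marks IkB-alpha for degradation, and the freed pairs enter the nucleus. NFKBIA and TNFAIP3 are themselves among the genes that NF-kB switches on, which makes both of them feedback inhibitors. SOCS1 and SOCS3 are switched on by cytokines through JAK kinases and STAT factors, and their products block the same receptors and kinases. In the liver both pathways act in hepatocytes and in resident macrophages, where they govern the acute phase response. These roles are known mainly from mammals, and REL was found as the cellular counterpart of the transforming gene of an avian retrovirus.

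Between 21435678 and 26494240 reads lay in genes in the controls, and between 8023809 and 41041301 with metformin. The libraries parted into 3 sets by how many of their reads were assigned to no gene. The middle set held all 5 controls (27.8% to 36.3%) and metformin 1, 3 and 4 (37.0% to 43.5%). The low set held metformin 2 and 5 (14.6% to 17.5%), and the high set metformin 6 to 10 (51.5% to 55.1%). All controls being in the middle set, metformin and set cannot be told apart for the others. For this reason each comparison is given over all 15 libraries, with the set as a covariate (set-adjusted), and within the 8 libraries of the middle set. With every control in the middle set, the set-adjusted difference also rests on these 8 libraries. The set-adjusted and middle-set values are therefore not separate checks. Within the middle set too, the share of reads in no gene was higher in metformin 1, 3 and 4 than in every control. There metformin and this share cannot be told apart either, and both comparisons keep this limit. Levels are read counts scaled to a common library size (CPM, with TMM factors). They are compared across libraries and not between genes, since they are not divided by gene length. Of the hepatocyte genes, albumin had a mean of 35713 CPM in controls and 40372 CPM with metformin, while CPS1 was low, at 8.88 and 8.19 CPM. Of 12 hepatocyte markers 0 were absent from every library. This held for the markers of the other cell types too, so it does not tell tissues apart. In whole tissue, fewer cells of a type and less RNA per cell cannot be told apart.

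Over all 15 libraries, 2 of the 9 genes fell with metformin (NFKBIA and SOCS1), 1 rose (TNFAIP3), and 6 did not pass the test. A gene is called here when its adjusted p is under 0.05 in edgeR's quasi-likelihood test, adjusted over all 14432 tested genes. Among all tested genes 5.73% were called lower and 12.5% higher, and counts of 2 and 1 among 9 genes are too small to be read against that background. Their median log2 fold change was -0.29, against 0.03 for all tested genes. Set-adjusted, edgeR called 0 of the 9, against 0.0346% of all genes, while 3 of the 9 had an unadjusted p under 0.05 (NFKBIA, SOCS1 and NFKBIZ, all lower), against 5.89% of all genes that were lower at that p. The fit within the middle set makes the same contrast and is no second test. There edgeR called 0, against 0.00734% of all genes. The same 3 of the 9 had an unadjusted p under 0.05, all lower, against 4.91% of all genes.

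**Figure D1:**
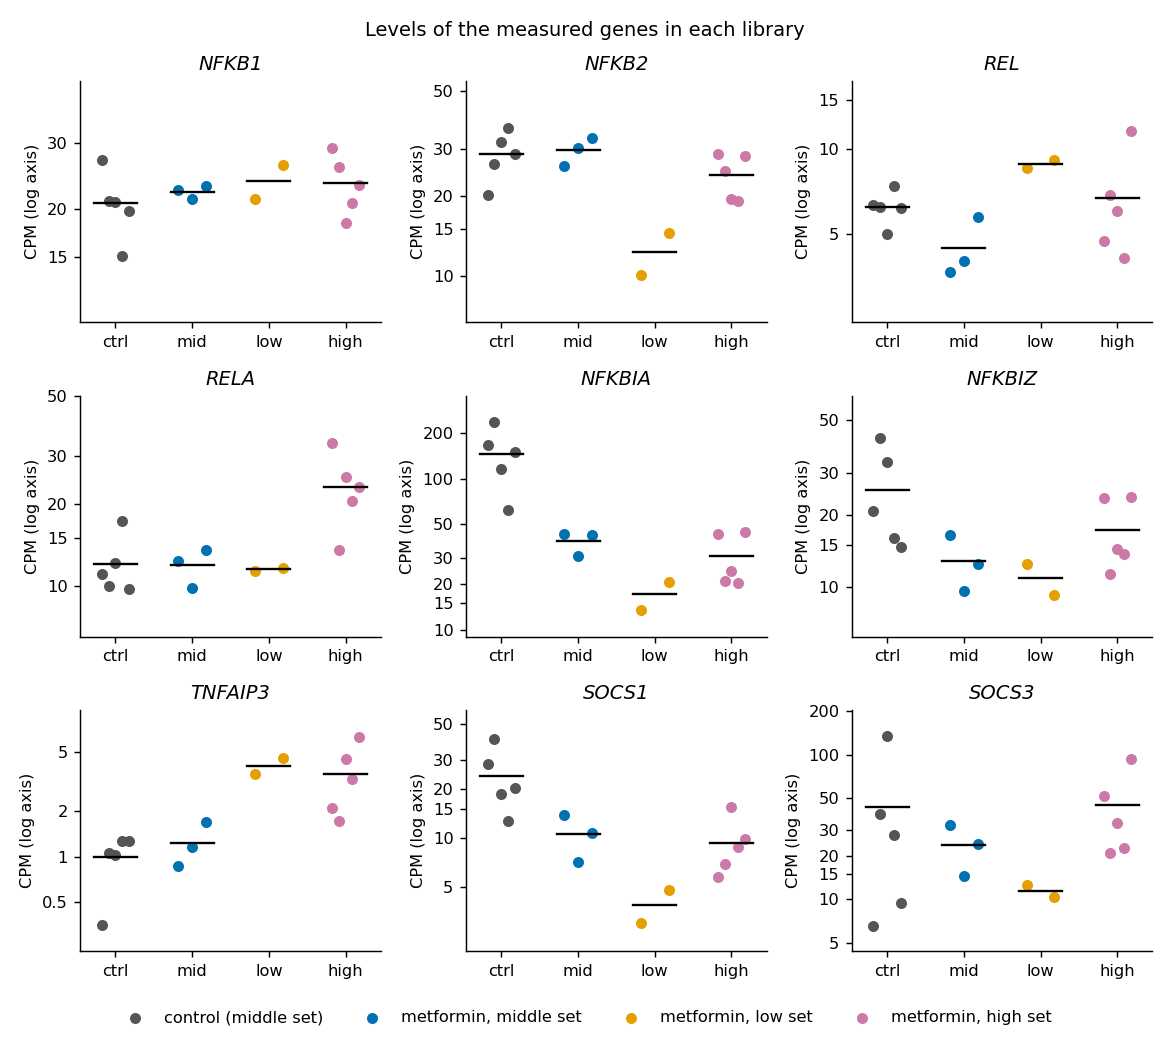
CPM of the 9 genes in each library on a log axis, with points for libraries and horizontal lines for means; columns are the controls (ctrl) and the metformin libraries of the middle (mid), low and high sets. NFKBIA is at most 44.5 CPM in the 10 metformin libraries and at least 62.5 CPM in the 5 controls, while NFKB1 overlaps between all columns.

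NFKBIA, which encodes the inhibitor that keeps NF-kB in the cytoplasm, fell with metformin. Controls 1 to 5 had 168, 237, 116, 62.5 and 150.2 CPM. The metformin libraries ran from 13.5 CPM in metformin 2 over a median of 27.7 to 44.5 CPM in metformin 10. The groups did not overlap, and 10 of 10 metformin libraries lay below the lowest control, which was true of 1.05% of all tested genes. The mean was 147 ± 64.4 CPM in controls (SD, n = 5) and 30.5 ± 11.9 CPM in metformin libraries (SD, n = 10), a 4.81-fold difference. On the log2 scale it fell by 2.27 ± 0.31 (SE, adjusted p = 0.0113). In this edgeR fit over all libraries its p was the smallest of all 14432 tested genes.

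In each set of libraries NFKBIA with metformin was below the lowest control, though only the middle set holds controls. Metformin 1, 3 and 4 of the middle set had 43.2, 30.9 and 42.7 CPM, all below the lowest control, a mean of 39.0 ± 6.97 CPM (SD, n = 3) and 3.77-fold below the controls. The low set had 13.5 and 20.9 CPM and the high set 20.6 to 44.5 CPM. The set-adjusted log2 fold change was -1.91 ± 0.38 (SE), with an adjusted p = 0.0817, and that within the middle set -1.90 ± 0.38 (SE, adjusted p = 0.217). Neither passed the threshold after adjustment over all genes, with unadjusted p of 0.000124 and 0.000368. In neither fit was the p of NFKBIA the smallest, since G6PC had 4.46e-05 and 0.000367 in edgeR. Within the middle set the NFKBIA levels of the groups still did not overlap, and its call was lost. With 3 metformin libraries such a gap is a weak mark, and the share of all genes with one there was not counted.

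SOCS1, which encodes a suppressor of JAK kinases that curbs interferon signalling, moved much as NFKBIA did. Controls 1 to 5 had 28.5, 40.3, 18.7, 12.7 and 20.1 CPM, and the metformin libraries ran from 3.04 CPM over a median of 7.98 to 15.5 CPM. Of the 10 metformin libraries 8 lay below the lowest control, and metformin 1 (13.8 CPM) and metformin 8 (15.5 CPM) overlapped the controls. The mean fell from 24.0 ± 10.7 to 8.63 ± 3.93 CPM (SD, n = 5 and n = 10), a log2 fold change of -1.48 ± 0.33 (SE, adjusted p = 0.0225). It was -1.19 ± 0.37 set-adjusted (SE, adjusted p = 0.224) and -1.17 ± 0.37 within the middle set (SE, adjusted p = 0.332). In the middle set metformin 1, 3 and 4 had 13.8, 7.17 and 10.7 CPM, so their range met that of the controls. In the RefSeq annotation of a later assembly SOCS1 overlaps RMI2, a gene of DNA repair. The sources used here do not say whether reads were counted by strand, so reads of the overlap cannot be assigned with certainty. RMI2 itself was at 0.11 on the log2 scale (adjusted p = 0.764) and at -0.43 set-adjusted (adjusted p = 0.434).

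NFKBIZ encodes an atypical IkB protein of the nucleus that, in mammals, helps switch on a part of the NF-kB targets. Controls 1 to 5 had 20.7, 42.0, 33.2, 16.0 and 14.7 CPM, and the metformin libraries ran from 9.28 CPM over a median of 13.1 to 23.7 CPM. Of these 7 lay below the lowest control, while metformin 1, 6 and 10, at 16.5, 23.5 and 23.7 CPM, lay within the range of the controls. The log2 fold change of -0.79 ± 0.28 (SE) missed the threshold with an adjusted p = 0.0565. The values were -0.98 ± 0.35 set-adjusted (SE, adjusted p = 0.283) and -0.96 ± 0.36 within the middle set (SE, adjusted p = 0.406). DESeq2 (adjusted p = 0.0462) and limma voom (adjusted p = 0.0364) called it lower over all libraries, at -0.75 in each, where they called 8.68% and 27.7% of all genes lower.

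**Figure D2:**
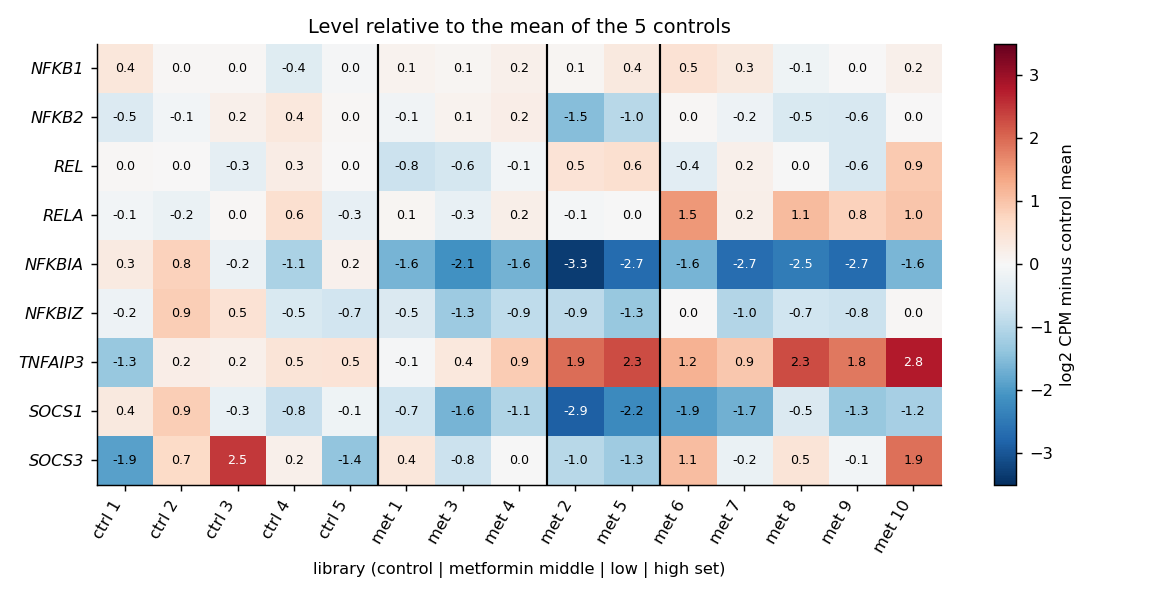
Log2 CPM of each gene minus the mean of the 5 controls, one column a library; vertical lines part the controls and the metformin libraries of the middle, low and high sets, and blue is lower and red higher than the control mean. NFKBIA is blue in all 10 metformin columns, TNFAIP3 is red in the low and high sets, and SOCS3 has both colours among the controls.

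TNFAIP3, which encodes the ubiquitin-editing enzyme A20 that shuts off signals to the IkB kinases, went the other way from NFKBIA over all libraries. It was scarce, with 9, 22, 23, 30 and 27 reads in controls 1 to 5 (0.350, 1.06, 1.03, 1.26 and 1.27 CPM). The metformin libraries had 13 to 175 reads, which is 0.866 to 6.33 CPM. Over all libraries TNFAIP3 rose from 0.995 ± 0.377 to 2.97 ± 1.76 CPM (SD, n = 5 and n = 10), a log2 fold change of 1.58 ± 0.50 (SE, adjusted p = 0.0412). Of the metformin libraries 8 of 10 lay above the highest control.

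The rise of TNFAIP3 lay in the low and high sets. Metformin 2 and 5 of the low set had 3.57 and 4.53 CPM, and the high set had 1.73 to 6.33 CPM. Metformin 1, 3 and 4 of the middle set had 0.866, 1.16 and 1.69 CPM, of which only metformin 4 lay above the controls. The set-adjusted log2 fold change was 0.33 ± 0.49 (SE), with an adjusted p = 0.859, and that within the middle set 0.35 ± 0.53 (SE, adjusted p = 0.871). Set and metformin cannot be told apart where the gene was high.

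SOCS3, a suppressor that binds the shared receptor chain of the interleukin-6 family and limits STAT3, was the most variable of the 9 genes. Controls 1 to 5 had 6.53, 38.9, 136, 27.7 and 9.40 CPM, a 20.8-fold range within the untreated group. The metformin libraries ran from 10.3 CPM over a median of 23.5 to 93.8 CPM, all of them inside the range of the controls. The log2 fold change was -0.46 ± 0.62 (SE), with an adjusted p = 0.588, and -0.88 ± 0.75 set-adjusted (SE, adjusted p = 0.713). Without control 3 it was 0.61 (adjusted p = 0.459), so its direction rested on that library. Other genes had narrower ranges in controls, from 1.48-fold for REL to 3.79-fold for NFKBIA.

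None of the 4 NF-kB subunits was called by edgeR over all libraries, set-adjusted or within the middle set. NFKB1, which encodes the precursor p105 and the subunit p50, varied little, at 20.8 ± 4.26 CPM in controls (SD, n = 5) and 23.2 ± 3.12 CPM in metformin libraries (SD, n = 10). On the log2 scale the difference was 0.16 ± 0.15 (SE, adjusted p = 0.448), 0.10 ± 0.19 set-adjusted (SE, adjusted p = 0.900) and 0.12 ± 0.20 within the middle set (SE, adjusted p = 0.888). In all 3 sets its levels with metformin overlapped the range of the controls, which all lie in the middle set. NFKB1 overlaps MANBA, a lysosomal enzyme gene, in the annotation, and MANBA had 0.04 (adjusted p = 0.877, -0.19 set-adjusted).

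NFKB2, which encodes the p100 precursor of the subunit p52 in the non-canonical arm of the pathway, had 20.2, 26.4, 32.1, 36.2 and 28.9 CPM in controls 1 to 5. The low set stood apart at 10.0 and 14.5 CPM, against 25.9 to 33.2 CPM in metformin 1, 3 and 4 and 19.1 to 28.8 CPM in the high set. The log2 fold change was -0.29 ± 0.24 over all libraries (SE, adjusted p = 0.372) and 0.05 ± 0.21 set-adjusted (SE, adjusted p = 0.958). Its sign thus turned with the set as a covariate. NFKB2 overlaps PSD in the annotation, and PSD had 0.08 (adjusted p = 0.912, 0.43 set-adjusted).

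RELA encodes p65, the main activating subunit of the classical NF-kB pair. Controls 1 to 5 had 11.0, 10.0, 12.1, 17.4 and 9.73 CPM. The middle set had 12.3, 9.83 and 13.5 CPM with metformin and the low set 11.3 and 11.6 CPM, all within the range of the controls. The high set had 33.4, 13.5, 25.2, 20.6 and 23.2 CPM, of which 4 of 5 lay above every control. The log2 fold change was 0.53 ± 0.29 over all libraries (SE, adjusted p = 0.183), -0.02 ± 0.26 set-adjusted (SE, adjusted p = 0.995) and 0.00 ± 0.23 within the middle set (SE, adjusted p = 0.997). With limma voom and quality weights it was called higher over all libraries, at 0.69 (adjusted p = 0.0213), where 23.0% of all genes were called higher. RELA overlaps 5 other genes in the annotation, among them KAT5, so its count is the least certain of the 9 in this respect.

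REL, the c-Rel subunit of lymphoid cells, had 5.02 to 7.40 CPM in controls and 3.66 to 11.6 CPM with metformin. Metformin 1, 3 and 4 had 3.66, 4.03 and 5.76 CPM, and metformin 2 and 5 had 8.62 and 9.17 CPM, above every control. Its log2 fold change was 0.05 ± 0.28 over all libraries (SE, adjusted p = 0.898) and -0.47 ± 0.31 set-adjusted (SE, adjusted p = 0.601). The sign turned here too.

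**Figure D3:**
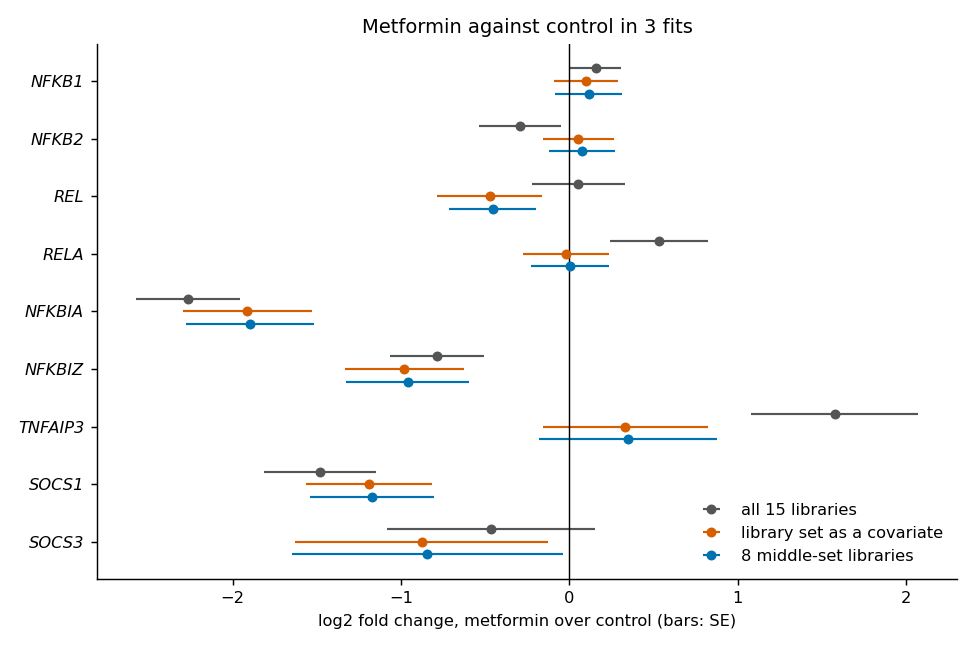
Log2 fold change of metformin over control for each gene with its standard error as a bar, over all 15 libraries, with the library set as a covariate, and in the 8 libraries of the middle set. The estimates of NFKBIA, SOCS1 and NFKBIZ stay below 0 in the 3 fits, while those of TNFAIP3 and RELA shrink from 1.58 and 0.53 to 0.33 and -0.02 with the covariate. The fits with the covariate and in the middle set compare metformin with control in the same 8 libraries.

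Since NFKB1 changed little, the reads of NFKBIA per read of NFKB1 give a measure within each library that no scaling of library sizes can move. This ratio was chosen after the values were seen and has no test. Controls 1 to 5 had 6.22, 11.3, 5.55, 4.14 and 7.57 NFKBIA reads per NFKB1 read. The middle set had 1.93, 1.45 and 1.86 with metformin, the low set 0.634 and 0.798, and the high set 0.809 to 1.92. All 10 metformin libraries lay below all 5 controls. With NFKB1 little changed, this repeats the gap of NFKBIA in CPM, which 1.05% of all tested genes also had. The share of genes with such a gap in a ratio was not counted. The ratio compares libraries and not the amounts of the transcripts, since the genes differ in length.

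Calls changed when single libraries, controls above all, were left out, and so did the calls over the whole table. Without control 2, 4 or 5 edgeR called 2, 16 and 0 of all genes higher and 4, 39 and 0 lower. Without control 4 SOCS1 lost its call although its unadjusted p in edgeR (0.000213) was smaller than over all 15 libraries (0.000387). Leaving out each library in turn, NFKBIA kept its call in 14 of 15 fits and lost it without control 5 (adjusted p = 0.0535), with a log2 fold change between -2.46 and -2.03. SOCS1 kept its call in 12 of 15 fits and lost it without control 2 (-1.22, adjusted p = 0.0708), control 4 (-1.64, adjusted p = 0.0536) or control 5 (-1.54, adjusted p = 0.0632). TNFAIP3 kept its call in 5 of 15 fits and in none without a control, where the adjusted p was 0.0784 to 0.0862, and it also missed without metformin 2, 5, 8, 9 or 10. Set-adjusted, NFKBIA passed without control 1 (adjusted p = 0.0273) or control 4 (adjusted p = 0.0482) and in no other of the 15 fits. The direction of these 3 genes was the same in every leave-out fit, with and without the covariate. With the covariate only the middle set bears on the difference, so leaving out a library of another set tells little.

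**Figure D4:**
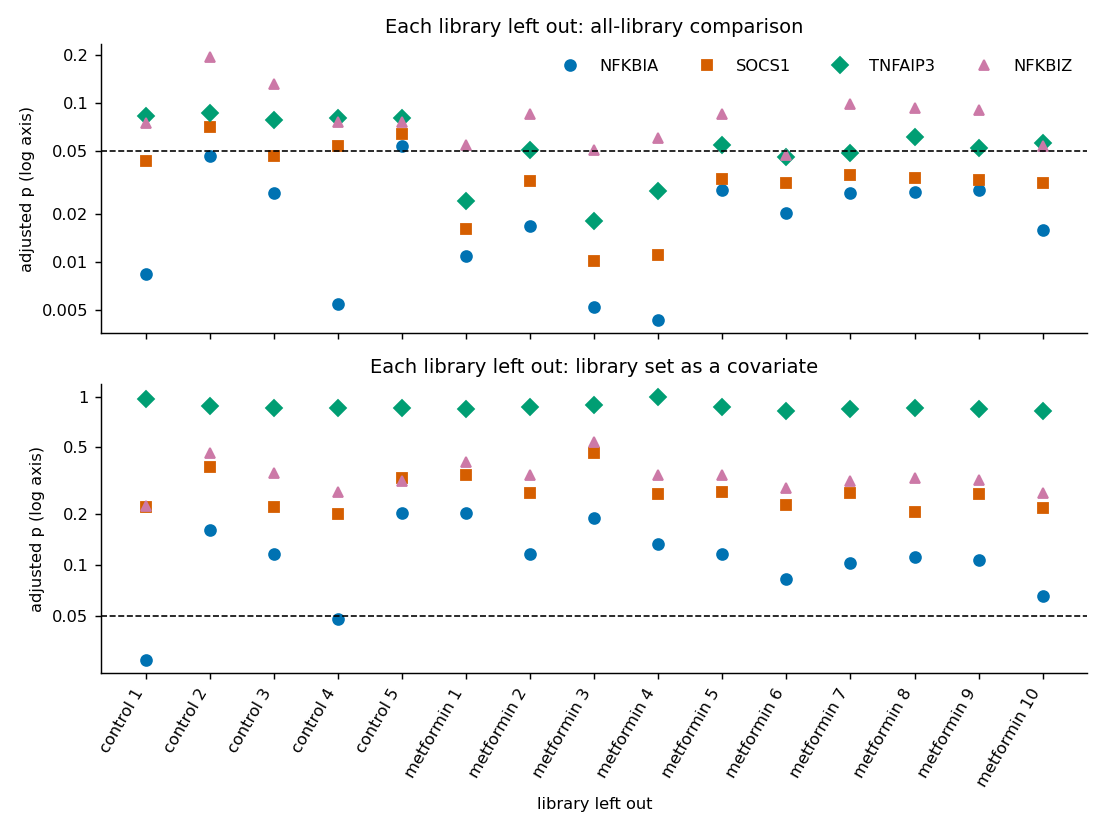
Adjusted p from edgeR on a log axis for NFKBIA, SOCS1, TNFAIP3 and NFKBIZ with the library on the horizontal axis left out, over the libraries that remain (top) and with the library set as a covariate (bottom); the dashed line marks 0.05. In the top panel NFKBIA lies below the line except without control 5, and in the bottom panel it lies below it only without control 1 or control 4.

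The share of reads in no gene itself was also used as a covariate, in place of the sets. There edgeR called NFKBIA, SOCS1 and NFKBIZ lower and TNFAIP3 higher, against 4.41% and 9.03% of all genes. This covariate enters as a straight line. TNFAIP3 was high in both the low set (3.57 and 4.53 CPM) and the high set (1.73 to 6.33 CPM), which such a line cannot take up. This fit therefore cannot tell the rise of TNFAIP3 apart from the share. With metformin, the means of NFKBIA in the low, middle and high sets were 17.2, 39.0 and 30.8 CPM. Those of SOCS1 were 3.90, 10.5 and 9.38 CPM. These means do not lie on a line either, so the fit has the same limit for NFKBIA and SOCS1. Without the low set, NFKBIA (-2.10, adjusted p = 0.0245) and SOCS1 (-1.28, adjusted p = 0.0276) stayed called lower, against 2.60% of all genes, and TNFAIP3 did not pass (1.44, adjusted p = 0.0760). Without the high set edgeR called 0 genes of the whole table in either direction (0% of all genes), with 2309 of 13305 at an unadjusted p under 0.05. There NFKBIA had -2.24 (adjusted p = 0.203), and 3 of the 9 genes were lower and 1 higher at an unadjusted p under 0.05. The shares of all genes in each direction were not counted there, so these small counts cannot be read against a background.

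Among the 5 genes whose pattern over the 15 libraries was most like that of NFKBIA were G6PC, CYP2AC1, APOA4 and SOCS1, from nearer to farther. Likeness was measured as the root mean square difference in log2 CPM after centring each gene on its mean. It was 0.51 for G6PC, 0.59 for CYP2AC1 and APOA4 and 0.60 for SOCS1, against 1.22 for NFKBIA around its own mean. G6PC is glucose-6-phosphatase, CYP2AC1 a cytochrome P450 and APOA4 an apolipoprotein. NFKBIZ came at place 727 among all tested genes, and TNFAIP3 at place 12421, with a difference of 2.09. These 4 genes near NFKBIA had negative log2 fold changes, from -2.16 for G6PC to -1.48 for SOCS1. That sign follows from how they were picked, since likeness over the 15 libraries includes the difference between the groups.

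Among other inhibitors of NF-kB, 1 of 12 tested genes rose and 1 fell, where 12.5% of all genes rose and 5.73% fell. Their median log2 fold change was -0.07. SIGIRR, a membrane protein that dampens interleukin-1 and toll-like receptors, fell from 133 ± 32.8 to 57.6 ± 20.7 CPM (SD, n = 5 and n = 10), a log2 fold change of -1.21 (adjusted p = 0.0180, -0.68 set-adjusted). In 9 of 10 metformin libraries it was under the lowest control. TOLLIP, an adaptor that restrains the same receptors, rose by 1.00 (adjusted p = 0.0494), and its set-adjusted value was 0.00. The IkB genes NFKBIB and NFKBIE, the closest relatives of NFKBIA in function, had log2 fold changes of -0.55 and -0.52, which did not pass (adjusted p = 0.124 and 0.303). The set-adjusted values were -0.12 and -0.24.

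Of 23 tested genes of the IkB kinase complex and its adaptors 4 rose and 1 fell. Of all genes 12.5% rose and 5.73% fell, and counts this small cannot be read against those shares. TAB3, which ties ubiquitin chains to the kinase TAK1, was higher in 10 of 10 metformin libraries than in any control, as were 0.651% of all tested genes, and rose by 0.83 on the log2 scale (adjusted p = 0.0243, 0.55 set-adjusted). Its partner TAB2 had 0.69, MAP3K7, the TAK1 kinase itself, 0.75, and TBK1, a kinase of the interferon arm, 1.21, with set-adjusted values of 0.17, 0.06 and -0.13. The gene that fell was TAB1 (-0.79, -0.16 set-adjusted). The kinases CHUK and IKBKB, which phosphorylate IkB-alpha, had -0.52 and 0.48, which did not pass (adjusted p = 0.139 and 0.0737). With the covariate they had 0.14 and 0.02.

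Of 17 tested receptors upstream of NF-kB 1 rose and 1 fell, where 12.5% of all genes rose and 5.73% fell. The interleukin-1 receptor IL1R1 had 3.15 (adjusted p = 0.0348), with levels of 0.751 to 58.6 CPM among the metformin libraries, and -0.44 set-adjusted. TLR4, the receptor for bacterial lipopolysaccharide, fell from 9.95 ± 5.38 to 5.41 ± 1.71 CPM (SD, n = 5 and n = 10), a log2 fold change of -0.88 (adjusted p = 0.0488, -0.56 set-adjusted). TLR4 was called in 3 of 15 leave-out fits and had -0.48 without control 3 (adjusted p = 0.213). It also missed the threshold with RLE factors (adjusted p = 0.0522), upper quartile factors (adjusted p = 0.0514) and no filter (adjusted p = 0.0644). TNFRSF1A, the main receptor for tumour necrosis factor, had -0.61 (adjusted p = 0.0549, -0.22 set-adjusted).

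Of 20 tested genes known as NF-kB targets 0 rose and 1 fell, where 12.5% of all genes rose and 5.73% fell. A further 5 genes of the list in the table were below the expression filter. The gene that fell was IL1B, the inflammatory cytokine interleukin-1 beta, from 15.3 ± 4.23 to 5.39 ± 4.26 CPM (SD, n = 5 and n = 10), a log2 fold change of -1.50 (adjusted p = 0.0409, -0.45 set-adjusted). Across these 20 the median log2 fold change was -0.48 in the 15 libraries, where all tested genes had 0.03, and -0.55 in the set-adjusted fit, where they had -0.03. Set-adjusted, 19 of the 20 had a negative value and 0 were called by edgeR, with 2 at an unadjusted p under 0.05 (11.6% of all genes), and 7763 of all 14432 genes were negative. The chemokine CCL4 had -0.66, the transcription factor IRF1 -0.20 and the mitochondrial superoxide dismutase SOD2 -0.15 in that fit. IL6 and CCL20 had at most 17 reads in any library and were not tested.

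Of 34 tested genes of JAK-STAT signalling, with other SOCS genes among them, 8 rose and 0 fell, where 12.5% of all genes rose and 5.73% fell. JAK1, SOCS5, SOCS6 and GHR, the growth hormone receptor, rose by 3.61, 1.98, 1.04 and 2.00 on the log2 scale, with adjusted p from 0.0259 for JAK1 to 0.0293 for GHR. Set-adjusted they had 0.08, 0.55, 0.27 and -0.24, and in that fit edgeR called 0 of the 34, with 5 at an unadjusted p under 0.05, where 11.6% of all genes were. The remaining tested SOCS family genes of this list did not pass. CISH had -0.45 with an adjusted p = 0.468, SOCS2 had -0.23 with 0.585 and SOCS4 had 0.29 with 0.560. Set-adjusted, CISH had -1.67 (adjusted p = 0.225), SOCS2 0.17 (adjusted p = 0.907) and SOCS4 -0.41 (adjusted p = 0.782). Of 13 tested acute phase genes and STAT3 targets 1 fell and 0 rose, against the same shares of all genes. The gene that fell was LBP, a plasma protein that carries lipopolysaccharide to its receptor (-0.78, adjusted p = 0.0364, -0.36 set-adjusted). It was called in 4 of 15 leave-out fits and had -0.48 without control 3 (adjusted p = 0.121). These 13 had a median of 0.19 in the 15 libraries and of -0.48 in the set-adjusted fit. In that fit 12 were negative, as were 7763 of all 14432 genes. These genes too can vary together, and this count was not tested and not recomputed without control 3. Of the other called genes named from these lists, leave-out fits called TOLLIP and IL1B in 3 of 15, TBK1 in 4, MAP3K7 in 6, TAB2 in 7, IL1R1, SOCS6 and GHR in 10, TAB3, JAK1 and SOCS5 in 11 and SIGIRR in 12.

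**Figure D5:**
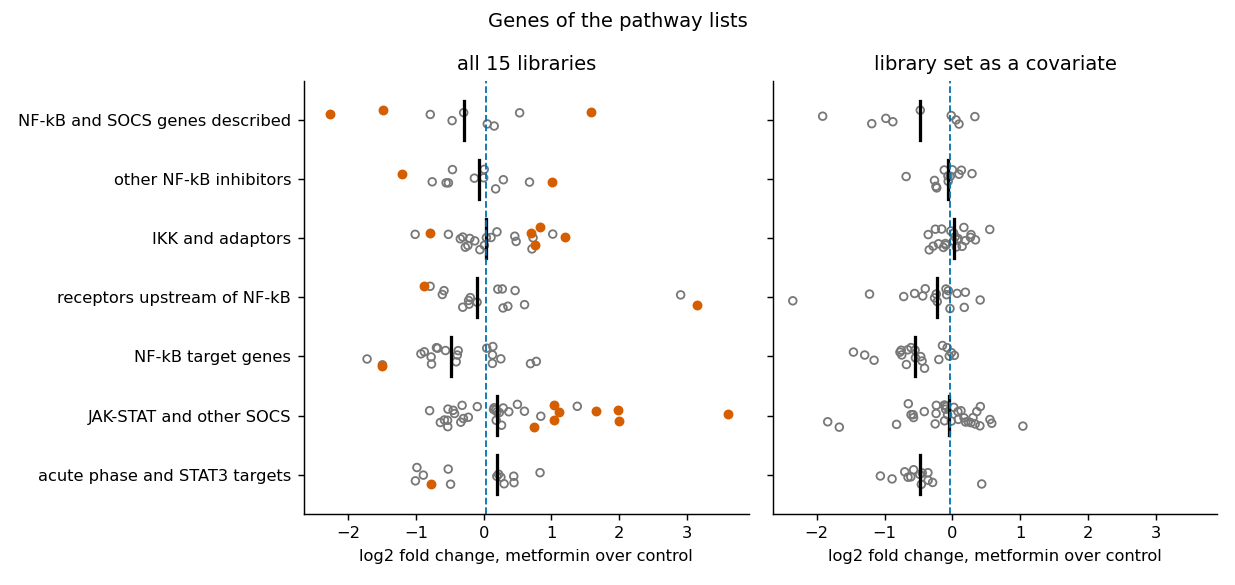
Log2 fold change of the tested genes of each list over all 15 libraries (left) and with the library set as a covariate (right); filled orange points have an adjusted p under 0.05, black bars are list medians and the dashed line is the median of all tested genes. Filled points are found in the left panel only.

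Cells other than hepatocytes also carry these genes, and their markers are given here beside the result. The summed level of 16 macrophage and leukocyte markers was 829 to 1554 CPM in controls, 557 to 979 CPM with metformin, and 684 to 957 CPM in metformin 1, 3 and 4. Of these 16 genes 3 fell and 1 rose, where 5.73% of all genes fell and 12.5% rose. C1QA had -0.73 (-0.86 set-adjusted), C1QC -1.28 (-0.43 set-adjusted), CD3D -0.96 (-0.21 set-adjusted) and CD163 4.40 (3.89 set-adjusted). The median of all 16 was -0.04 (-0.01 set-adjusted), and set-adjusted 8 were positive and 8 negative. The summed level of 8 heterophil and thrombocyte markers was 49.9 to 176 CPM in controls and 14.6 to 114 CPM with metformin. Of 6 tested markers of this list 1 was called, AvBD6, a granule defensin, which fell (-2.66, adjusted p = 0.0180, -2.58 set-adjusted). AvBD1 and AvBD7 had -2.45 and -2.27, which did not pass (adjusted p = 0.0550 and 0.0581). ITGA2B had -1.14 and ITGB3 -1.07, while LYG2 had 1.31, and none of these passed. The summed levels of the erythrocyte, endothelial, stromal, bile duct and hepatocyte markers overlapped between the groups, as did those of the leukocyte and heterophil lists. The hepatocyte sum was 57749 to 87979 CPM in controls and 35596 to 123711 CPM with metformin. In metformin 1, 3 and 4 it was 35596 to 66766 CPM. Of 8 tested stromal markers 1 was called, DCN, which rose (1.87, adjusted p = 0.0316, -0.04 set-adjusted), while the list median was -0.22. Of 6 bile duct markers 1 was called, the keratin KRT7, which fell (-0.84, adjusted p = 0.0457, -0.56 set-adjusted), while SOX9 had 1.64. Of 12 hepatocyte markers 1 was called, AMBP, which fell (-0.71, adjusted p = 0.0386, -0.77 set-adjusted). APOB had 1.02 (0.05 set-adjusted), TF 0.95 (-0.03 set-adjusted) and APOA1 -1.27 (-1.09 set-adjusted), none of them called. Albumin had 0.18 (-0.80 set-adjusted). Set-adjusted, 9 of the 12 were negative and 3 positive, where 7763 of all 14432 genes were negative. The list medians were -0.45 for bile duct and 0.16 for hepatocyte markers. Single calls in such short lists cannot be read against the 5.73% and 12.5% of all genes. Set-adjusted, edgeR called 0 markers of any of these lists, and 0 markers in the table were at 0 in every library. The part of these cells in the levels of NFKBIA and SOCS1 was not tested.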

How the data were processed

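A stranded mRNA kit was used on 200 ng of liver RNA for each of the 15 libraries, per the labels' protocols. The authors deposited raw read counts per gene, for which the submitters' processing notes name HTSeq 0.12.3, the aligner STAR 2.7.11b, Trim Galore 0.6.4, FastQC 0.12.0 and the build GRCg6a. Besides 24154 genes it holds 5 summary rows, which were kept out of every library size and test. The share of reads in no gene was 14.6% to 55.1%.

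The main test was edgeR 4.0.16 (R 4.3.3, quasi-likelihood, TMM, default filter, Benjamini-Hochberg over 14432 genes), and all adjusted p-values of genes are from it unless DESeq2 1.42.0 or limma 3.58.1 is named. All 9 genes in the table passed the filter. Library sets were parted at gaps of over 5 percentage points in the share of reads in no gene. The calculations were tested on simulated counts. No library pair agreed within sampling noise (smallest chi-square per degree of freedom 90.6).

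The members, the lists and the tests were chosen with earlier results of these data known. From each pathway list the called genes with the smallest p, up to 4, or, with no call, the gene of smallest p, were named, together with the 5 genes most like NFKBIA, of which 1 is not reported here. Genes named beyond this rule (NFKBIB, NFKBIE, CHUK, IKBKB, TNFRSF1A, TAB1, CCL4, IRF1, SOD2, IL6, CCL20, CISH, SOCS2, SOCS4, the overlapping genes and the markers) were chosen after their values were seen. Overlaps were read from a RefSeq gene table of the assembly GRCg7b, which matched 9 of 9 genes by symbol. Alternatives were other factors, filters and tools, the replicate number as a block, the share in no gene as a covariate, and libraries left out. Removing the low or the high set was added after seeing the data.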

Additional observations from a re-analysis of the deposited data

Results flagged for a closer look

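In 18 groups of libraries (9 genes, controls and metformin) 3 values stood apart by Dixon's criterion. Chance flags about 1 in 20 groups where values are normally spread. The criterion was applied to CPM and not to log2 CPM, so the count of flags cannot be read against that share. SOCS3 was highest in control 3, at 136 CPM, where the next control had 38.9 CPM. SOCS3 was also highest in metformin 10, at 93.8 CPM, where the next metformin library had 51.7 CPM. Without control 3 the log2 fold change of SOCS3 went from -0.46 to 0.61 (adjusted p = 0.459), and without metformin 10 it was -0.76 (adjusted p = 0.334). TNFAIP3 was lowest in control 1, at 0.350 CPM from 9 reads, where the next control had 1.03 CPM. Without control 1 the log2 fold change of TNFAIP3 was 1.35 (adjusted p = 0.0830), which no longer passed.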

How the results depend on the processing

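Of the results on single genes recomputed under each alternative, 543 kept their direction and side of the threshold, 483 kept the direction and lost the call, 5 gained one and 103 changed sign; the cause was not tested. DESeq2 called 3034 genes higher and 1253 lower, and limma voom with quality weights 3323 and 4001, with 2 of the 9 NF-kB and feedback genes higher and SOCS3 at 0.28 on the log2 scale. With no filter 0 of the 9 were called higher. With the set as a covariate edgeR called 4 genes higher and 1 lower (1678 at an unadjusted p under 0.05), 0 of the 9 in either direction, and NFKB2 (0.054), REL (-0.47), RELA (-0.017), TBK1 (-0.13), IL1R1 (-0.44) and GHR (-0.24) changed sign. Within the middle set it called 0 higher and 1 lower (1390 unadjusted), 0 of the 9, with NFKB2 at 0.076, REL at -0.46, TBK1 at -0.11, IL1R1 at -0.42 and GHR at -0.22. Without the low set 366 genes were lower, 0 of the 9 higher, and REL had -0.084. Without the high set edgeR called 0 genes in either direction (2309 unadjusted) and 0 of the 9. Leaving out each library in turn, with and without the set as a covariate, gave 0 to 3011 genes higher and 0 to 2293 lower, 0 to 1 of the 9 higher and 0 to 3 lower. Log2 fold changes then ran from -0.000176 to 0.26 for NFKB1, -0.40 to 0.15 for NFKB2, -0.70 to 0.15 for REL, -0.12 to 0.70 for RELA, -1.17 to 0.61 for SOCS3, -0.30 to 1.32 for TBK1, -0.745 to 4.20 for IL1R1, -0.36 to 2.13 for GHR, -0.11 to 3.75 for JAK1 and -0.17 to 1.11 for TOLLIP. TNFAIP3 had 9 to 30 reads in each control, so its control levels rest on few reads.

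With the replicate number as a block edgeR called 0 genes higher and 0 lower (1704 at an unadjusted p under 0.05) and 0 of the 9 in either direction, with NFKBIA at -2.27, SOCS1 at -1.66 and TNFAIP3 at 1.10 (each adjusted p = 0.419), REL at -0.084 and RELA at -0.013. In the block fit only 5 replicate numbers have both a control and a metformin library, so the other metformin libraries did not bear on these values. The deviations of libraries with one number correlated at -0.05 to 0.10. For 2 of 5 numbers the same-numbered library was the best match. This check on 5 numbers cannot show whether same-numbered libraries are paired.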
